A study of Mus musculus with 13 samples.

Results

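Imprinted genes are described here across mouse cells sorted on the reporter of Stella: the paternally expressed Dlk1, Peg3, Igf2, Mest, Peg10 and Plagl1, and the maternally expressed Meg3, Igf2r, Cdkn1c and Grb10. The 10 genes were taken as the probe sets, control probe sets excluded, that the platform annotation gives to exactly 1 of these symbols. They came to 31 of 45037 probe sets and to 10 of 18193 genes. A probe set is a group of short probes on the array that reports 1 transcript region, and 27 of the 31 passed the filter on low signal. Each gene was represented by its brightest probe set, and each of these 10 lay above the array's own median signal on all 13 arrays.

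In imprinting, a mark set in the egg or the sperm, usually DNA methylation, leaves 1 parental copy of a gene silent in the offspring. Many paternally expressed genes promote growth of the fetus or placenta, and several maternally expressed genes restrain it. Germ cells erase these marks and set them anew by sex, which makes imprinted genes a common readout of germ cells made in culture. An array measures the summed RNA of both copies, so the parental copy could not be read here, and the labels paternal and maternal are background knowledge.

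Total RNA was measured on 13 Affymetrix arrays, 1 array for each sample. Embryonic stem cells (ESC) with a Stella reporter that fluoresces green were sorted into a Stella-negative fraction (n = 3) and a Stella-positive fraction (n = 2) or left unsorted (n = 2). Embryoid bodies, which are clumps of differentiating ESC, were sorted at day 7 into a Stella-negative fraction (n = 2), labelled as not germ cells, and a Stella-positive fraction (n = 4), labelled as primordial germ cells made in vitro. All groups carry the reporter. The sources used here do not give the strain, the sex of the line or the number of cultures, and the p-values therefore cover only the spread among arrays, which may be technical. One of the array description files names a BAC (bacterial artificial chromosome) line for Stella-positive ESC array 2, and the labels do not say whether it differs from the other line.

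The arrays differed in more than the sort. Dppa3, which encodes Stella, separated the fractions on each sorted array. The 3'/5' ratio of the Gapdh controls, a measure that goes up with shorter labelled RNA, ran from 0.803 to 0.869 in ESC. It was 3.03 and 3.18 in Stella-negative and 1.23 to 2.09 in Stella-positive cells of day 7. The day 7 arrays shared 1 hybridisation day and the ESC arrays had others, so culture and hybridisation day cannot be told apart. Each sort has 1 mixed hybridisation run, with 1 negative and 3 positive arrays at day 7 and with 3 negative arrays and 1 positive array in ESC. Stella-positive day 7 arrays 3 and 4 stood apart from arrays 1 and 2. Counts of called genes that use them are given with and without them, and single differences where the call changed.

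RefSeq coordinates on the GRCm38.p6 build, on which 10 of 10 symbols matched, place the genes on 6 chromosomes. Dlk1 (chr12:109452485-109463336) and the noncoding RNA gene Meg3 (chr12:109540996-109571729) are neighbours, 77659 bases apart. Igf2 (chr7:142650768-142666816) and Cdkn1c (chr7:143458339-143461059) lie 791522 bases apart on a chromosome that also holds Peg3 (chr7:6703892-6730462). Peg10 (chr6:4747306-4760517) and Mest (chr6:30733506-30748466) share chromosome 6, and Plagl1 (chr10:13090832-13131694), Grb10 (chr11:11930499-12037428) and Igf2r (chr17:12682406-12769706) lie alone. All but Meg3 code for protein.

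The RefSeq promoter table used here held windows for 8 of the 10 genes, and those of Cdkn1c and Peg10 were not analysed here. Methylation of CpG, the pair C then G that is the site of the imprinting mark, is a background reason to look at the bases upstream of the start. The 250 bases before a transcript start that the table lists are shown for the neighbours Dlk1 and Meg3, whose copies are expressed from opposite parents, and for Peg3 and Plagl1, with each CpG in capitals. The windows lie at chr12:109452573-109452822 on the plus strand for Dlk1, chr12:109540746-109540995 on the plus strand for Meg3, chr7:6730420-6730669 on the minus strand for Peg3 and chr10:13090582-13090831 on the plus strand for Plagl1. For Meg3 and Plagl1 the window ends immediately before the gene's first base. The Dlk1 window lies inside the gene bounds given above and the Peg3 window overlaps them, so their listed starts are not the outermost of the gene. All are written 5′ to 3′ along the gene.
Dlk1: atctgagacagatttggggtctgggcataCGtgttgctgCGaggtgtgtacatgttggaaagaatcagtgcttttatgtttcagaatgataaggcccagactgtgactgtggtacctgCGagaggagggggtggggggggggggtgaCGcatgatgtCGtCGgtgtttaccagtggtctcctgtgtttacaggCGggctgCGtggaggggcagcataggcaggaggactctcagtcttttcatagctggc
Meg3: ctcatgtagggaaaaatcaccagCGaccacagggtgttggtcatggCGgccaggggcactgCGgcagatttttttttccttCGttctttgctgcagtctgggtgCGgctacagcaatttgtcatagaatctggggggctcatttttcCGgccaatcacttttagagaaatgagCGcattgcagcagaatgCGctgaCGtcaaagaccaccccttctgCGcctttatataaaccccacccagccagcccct
Peg3: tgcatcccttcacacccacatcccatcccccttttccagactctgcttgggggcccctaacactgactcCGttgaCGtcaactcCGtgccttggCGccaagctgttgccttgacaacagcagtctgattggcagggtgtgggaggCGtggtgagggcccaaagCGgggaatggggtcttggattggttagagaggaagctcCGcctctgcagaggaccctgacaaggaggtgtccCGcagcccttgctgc
Plagl1: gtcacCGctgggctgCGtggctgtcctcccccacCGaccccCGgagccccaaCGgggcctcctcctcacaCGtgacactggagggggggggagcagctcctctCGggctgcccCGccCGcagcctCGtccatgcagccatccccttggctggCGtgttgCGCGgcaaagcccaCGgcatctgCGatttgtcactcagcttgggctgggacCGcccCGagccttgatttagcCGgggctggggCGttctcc

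The Dlk1 window holds 8 CpG, as does the Peg3 window, and 43.0% of all 32851 RefSeq promoter windows of the same length hold at least as many. The Meg3 window holds 10 (37.8% hold at least as many) and the Plagl1 window 19 (19.7%), against a median of 6 over all windows. The first window of Grb10 holds 40 (1.31%) and that of Igf2r 27 (8.56%). The search was for the letters CG, which read the same on both strands, and 92.1% of all windows hold at least 1. The first Igf2 window holds 1 CpG and the second Meg3 window 0, while the windows counted above all exceed the median. Windows below and above the median thus occur in both parental directions, and the arrays say nothing of methylation at these sites.

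Signals below are scaled MAS5 intensities, comparable for 1 probe set between arrays and not between genes. Differences are on the log2(signal + c) scale ± the standard error (SE) of limma's fit across all arrays, where c is a small constant, and a gene is called at an adjusted p under 0.05. Most of the 10 genes dropped across the day 7 sort: 9 of them were lower in Stella-positive than in Stella-negative day 7 cells, 0 were higher, and Peg10 did not pass. Of all 14007 genes tested, 9.07% were called lower and 10.2% higher in that comparison. These were 1270 and 1434 genes, and with arrays centred on their medians instead 483 and 1701, under which 8 of the 10 genes were called lower. The median difference was -1.59 over the 10 genes and -0.09 over all genes. It was -2.48 over the 6 paternally expressed and -1.34 over the 4 maternally expressed genes. In all 10 genes every positive array lay below both negative arrays, as it did in 22.9% of all genes. Without positive arrays 3 and 4 the same 9 genes were called lower, against 10.4% of all genes. Their differences ran from -2.64 for Dlk1 to -1.11 for Igf2r, and the median over the 10 was -1.56.

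**Figure D1:**
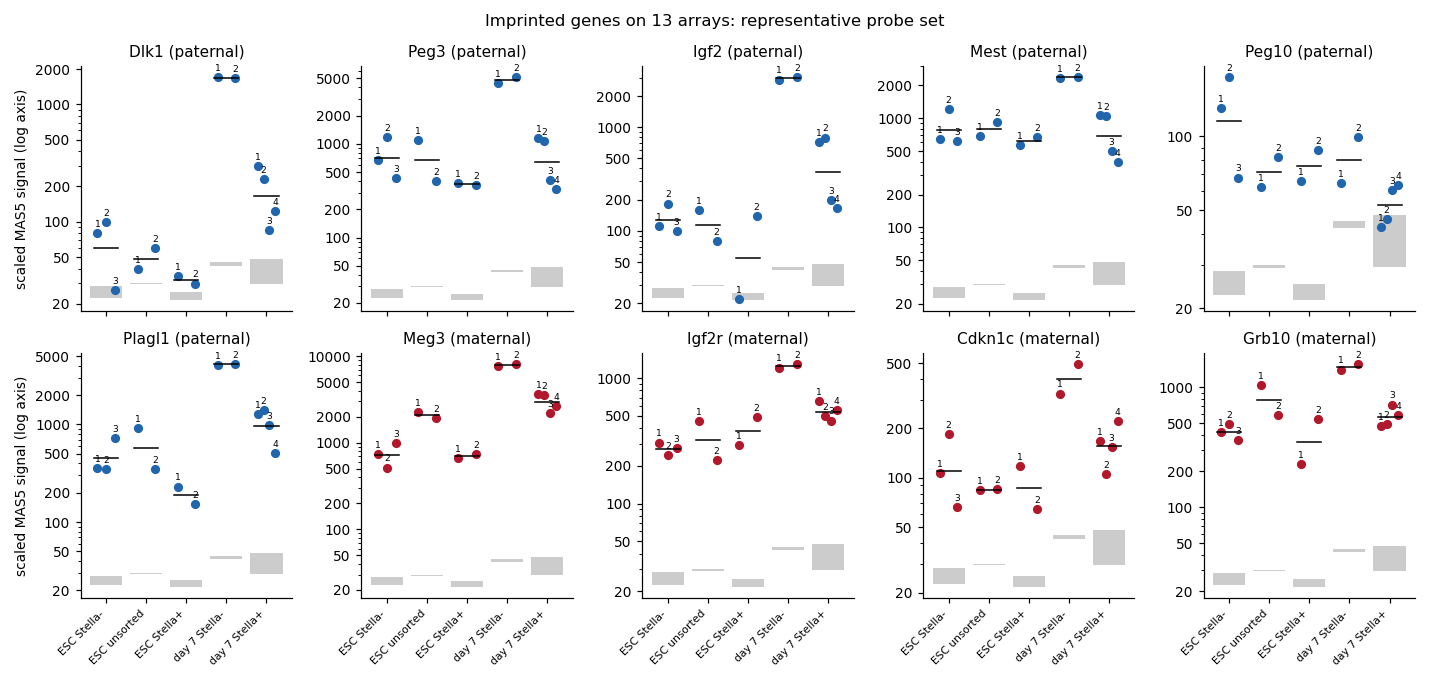
Scaled MAS5 signal (log axis) of each imprinted gene's brightest probe set on all 13 arrays, in blue for paternally and red for maternally expressed genes, with the array number over each point. Black lines are the geometric mean of each group and grey bars span the median signal of all probe sets on the arrays of that group. In 9 of the 10 genes both Stella-negative day 7 arrays lie above every other array, as in 15.4% of all genes tested, and Peg10 is the exception.

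Dlk1, a membrane protein of the Notch ligand type that restrains fat cell differentiation, had the largest drop of the 10. Its signal was 80.4, 99.2 and 26.3 in Stella-negative ESC, 34.4 and 29.8 in Stella-positive ESC, 39.3 and 59.8 in unsorted ESC, 1713 and 1675 at day 7 in Stella-negative cells, and 299, 230.1, 85.3 and 124 in Stella-positive cells. Both negative day 7 arrays were thus far above the positive ones, while the positive ones overlapped Stella-negative ESC. Dlk1 fell by 3.28 ± 0.44 in the day 7 sort (limma adjusted p = 0.00018). It rose by 4.57 ± 0.46 from Stella-negative ESC to Stella-negative day 7 cells and by 2.05 ± 0.44 in the Stella-positive fraction (limma adjusted p = 3.7e-06 and 0.0050). Without Stella-positive ESC array 2 the latter was 1.97 and did not pass (limma adjusted p = 0.068).

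Igf2 encodes a fetal growth factor. It read 112, 184 and 99.1 in Stella-negative ESC, 22.1 and 139 in Stella-positive ESC, 159.8 and 80.2 in unsorted ESC, 2885 and 3053 at day 7 in Stella-negative cells, and 723, 796, 199.8 and 168 in Stella-positive cells. The positive day 7 arrays formed 2 pairs, the lower of which lay within reach of Stella-negative ESC and above both Stella-positive ESC arrays. The day 7 sort difference was -2.95 ± 0.59 (limma adjusted p = 0.0033). The rise from ESC to day 7 was 4.44 ± 0.62 in the negative and 2.47 ± 0.59 in the positive fraction, the latter with a limma adjusted p of 0.0098. Without Stella-positive ESC array 1, at 22.1 the lowest of all arrays, the rise in the positive fraction was 1.37 and lost its call (limma adjusted p = 0.24). A second, dimmer Igf2 probe set had a day 7 sort difference of -1.63 ± 0.58 that did not pass (limma adjusted p = 0.064). It exceeded the array median on 3 arrays, the 2 negative day 7 arrays (95.7 and 105.0) and positive day 7 array 4. On the latter it read 119.0, above both negative arrays.

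Peg3, a zinc finger protein of growth and maternal behaviour in the mouse, and Plagl1, a zinc finger factor that slows cell division, had the same order of groups at day 7. Peg3 read 674, 1184 and 433 in Stella-negative ESC, 382 and 362 in Stella-positive ESC, 1104 and 403 in unsorted ESC, 4491 and 5167 at day 7 in Stella-negative cells, and 1152, 1059, 407 and 332 in Stella-positive cells. Plagl1 read 359, 352 and 722 in Stella-negative ESC, 231 and 152 in Stella-positive ESC, 914 and 352 in unsorted ESC, 4086 and 4142 at day 7 in Stella-negative cells, and 1277, 1405, 982 and 513 in Stella-positive cells. In both genes the Stella-positive ESC arrays were also the lowest of the sorted ESC arrays, and the positive day 7 arrays of Peg3 overlapped ESC of either fraction. The day 7 sort difference was -2.89 ± 0.47 for Peg3 and -2.06 ± 0.40 for Plagl1 (limma adjusted p = 0.00085 and 0.0025). Plagl1 rose by 2.32 ± 0.40 in the positive fraction from ESC to day 7 (limma adjusted p = 0.0012), whereas the change of Peg3 there was 0.76 ± 0.47 and did not pass. Without positive day 7 arrays 3 and 4 the Peg3 value was 1.54 and passed (limma adjusted p = 0.023).

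Mest, which encodes a protein of the alpha/beta hydrolase fold, read 644, 1210.2 and 616 in Stella-negative ESC, 567 and 672 in Stella-positive ESC, 691 and 918 in unsorted ESC, 2355 and 2392 at day 7 in Stella-negative cells, and 1063, 1052, 499.7 and 396 in Stella-positive cells. Its positive day 7 arrays lay on both sides of Stella-positive ESC, with arrays 1 and 2 above and arrays 3 and 4 below. The day 7 sort difference was -1.77 ± 0.35 (limma adjusted p = 0.0030). Within the mixed hybridisation run, which holds 1 negative array, it was -1.52. Of the 29 settings of the fit run for this sort, 28 called Mest. Peg10, a gene derived from a retrotransposon and needed for the placenta, was the one gene of the 10 with no rise called in negative day 7 cells. It read 131, 174 and 68.0 in Stella-negative ESC, 65.7 and 87.7 in Stella-positive ESC, 62.4 and 82.4 in unsorted ESC, 64.9 and 99.0 at day 7 in Stella-negative cells, and 43.0, 46.1, 60.7 and 63.2 in Stella-positive cells. Its highest arrays were thus Stella-negative ESC, and its day 7 fractions were separated by less than 2 units of signal. Its day 7 sort difference was -0.53 ± 0.34 (limma adjusted p = 0.30).

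Among the maternally expressed genes, Meg3 makes a long noncoding RNA from the copy on which its neighbour Dlk1 is silent. It read 735, 517 and 997 in Stella-negative ESC, 666 and 742 in Stella-positive ESC, 2253 and 1939 in unsorted ESC, 7696 and 8077 at day 7 in Stella-negative cells, and 3675, 3571, 2220.2 and 2628 in Stella-positive cells. Stella-positive day 7 arrays were all above the sorted ESC arrays, which was not so for Dlk1, and unsorted ESC overlapped them. Meg3 fell by 1.41 ± 0.24 across the day 7 sort (limma adjusted p = 0.0012). It rose by 3.43 ± 0.26 from ESC to day 7 in the negative and by 2.06 ± 0.24 in the positive fraction (limma adjusted p = 5.5e-07 and 8.9e-05).

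The 3 other maternally expressed genes act against growth signals. Igf2r encodes the receptor that carries IGF2 to the lysosome, Cdkn1c the cyclin-dependent kinase inhibitor p57, and Grb10 an adaptor that restrains insulin and IGF signalling. Igf2r read 307, 243 and 276 in Stella-negative ESC, 293 and 491 in Stella-positive ESC, 457 and 223 in unsorted ESC, 1218 and 1294 at day 7 in Stella-negative cells, and 660.3, 503, 460.0 and 558 in Stella-positive cells. Cdkn1c read 107, 186 and 66.3 in Stella-negative ESC, 118 and 64.3 in Stella-positive ESC, 84.2 and 85.2 in unsorted ESC, 326 and 493 at day 7 in Stella-negative cells, and 167, 105, 155 and 221 in Stella-positive cells. Grb10 read 425, 494 and 364 in Stella-negative ESC, 228 and 539 in Stella-positive ESC, 1036 and 586 in unsorted ESC, 1404 and 1555 at day 7 in Stella-negative cells, and 474, 489.9, 717 and 589 in Stella-positive cells. In all 3 the positive day 7 arrays overlapped Stella-positive ESC and lay below both negative day 7 arrays.

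The day 7 sort difference was -1.38 ± 0.29 for Grb10, -1.30 ± 0.35 for Cdkn1c and -1.20 ± 0.26 for Igf2r (limma adjusted p = 0.0044, 0.019 and 0.0053). These 3 calls rested on both negative arrays: without negative array 1 the limma adjusted p was 0.051, 0.067 and 0.061 in the same order, and without negative array 2 it was 0.061, 0.20 and 0.065. When the Gapdh ratio was entered as a covariate, the 3 differences became -0.85, -0.41 and -1.22 and none passed (limma adjusted p = 0.36, 0.73 and 0.14). The ratio was 3.03 and 3.18 on negative and 1.23 to 2.09 on positive day 7 arrays. It thus did not overlap between the fractions, and that fit cannot tell it apart from the sort. Cdkn1c also missed the threshold with arrays centred on their medians, at -1.06 (limma adjusted p = 0.058). The calls of Dlk1, Igf2, Peg3, Plagl1 and Meg3 held in all 29 settings of the fit that were run for this sort, the main one included.

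**Figure D2:**
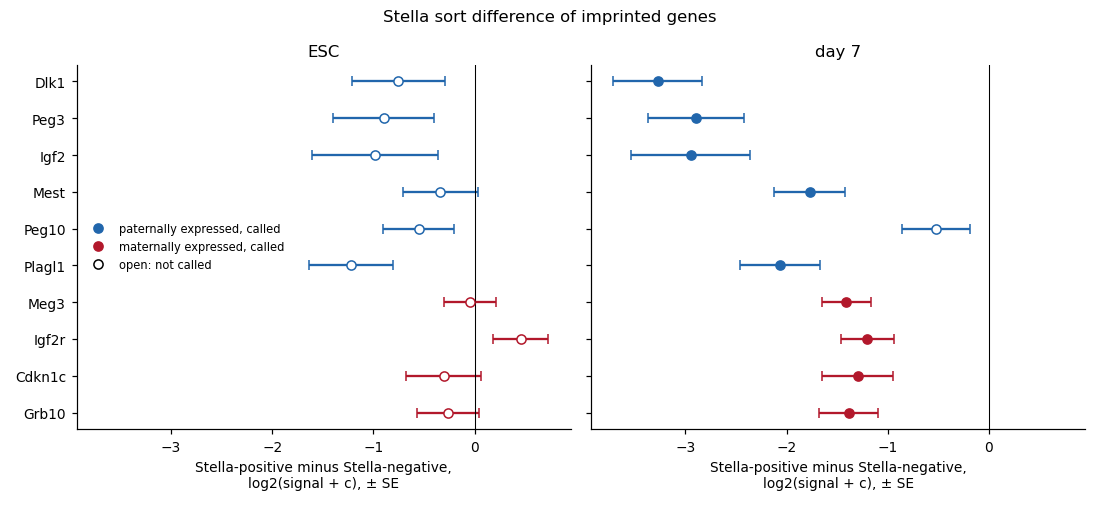
Stella-positive minus Stella-negative difference of each imprinted gene (log2(signal + c), bars ± SE) in ESC on the left and at day 7 on the right, with filled points for calls at a limma adjusted p under 0.05. Of the 10 genes 9 are called lower at day 7, with the paternally expressed genes from -3.28 to -0.53 and the maternally expressed ones from -1.41 to -1.20, and in ESC 0 are called.

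The other probe sets of the same genes varied, and not strictly with their brightness. Meg3 probe set 1428765_at was called at -1.83 ± 0.49, while the brighter 1429257_at was at -0.83 ± 0.28 and not called. Of the 27 tested, 17 were called lower in the day 7 sort, 0 higher and 10 not, against 7.87% of all tested probe sets called lower. Without positive day 7 arrays 3 and 4, 19 were called lower and 0 higher, against 3123 of all 30023 tested probe sets called lower. Meg3 has 11 tested probe sets, of which 7 were lower. Among its brighter ones the differences were -2.31 ± 0.28, -2.19 ± 0.22 and -2.07 ± 0.26, against -1.41 ± 0.24 for the brightest. The dim Meg3 probe set 1436057_at was at 0.67 ± 0.42 and the dim Grb10 probe set 1425457_a_at at 0.60 ± 0.48, neither called. Grb10 therefore rests on 1 of its 3 probe sets, and with the mean over its probe sets its difference was -0.50 (limma adjusted p = 0.42). Both Igf2r probe sets were called, as were 2 of 3 for Peg3. The dim Plagl1 probe set 1438588_at was at -1.20 ± 0.58 and did not pass (limma adjusted p = 0.17). On positive day 7 array 4 it read 84.1, above the 68.6 and 76.1 of the negative arrays. The representatives of Meg3 and Plagl1 are of the class marked x, whose probes can also match other sequences. Probe sets of Dlk1 (1), Peg3 (2) and Plagl1 (1) did not pass the signal filter.

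**Figure D3:**
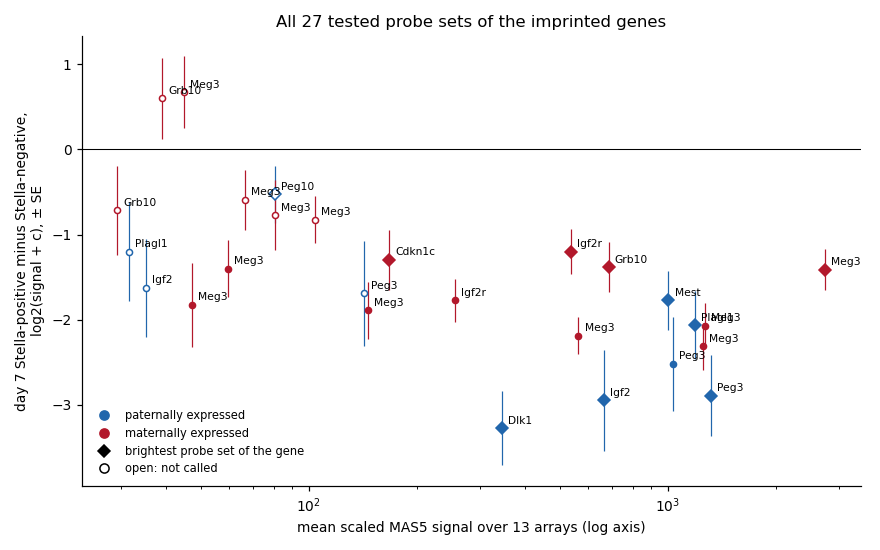
Day 7 Stella-positive minus Stella-negative difference (log2(signal + c), bars ± SE) of the 27 tested probe sets of the imprinted genes against their mean scaled signal over 13 arrays (log axis), with diamonds for the brightest probe set of each gene and open symbols where the limma call was not made. The 2 positive differences, 0.67 for Meg3 and 0.60 for Grb10, belong to dim probe sets.

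In ESC the same sort gave no call. With limma 0 of the 10 genes passed and 1, Plagl1, had an unadjusted p under 0.05. Of all genes 0.00714% were called higher and 0.0% lower, so that a count of 0 is near the background. Plagl1 was at -1.22 ± 0.42, Igf2 at -0.98 ± 0.62, Peg3 at -0.90 ± 0.50, Dlk1 at -0.75 ± 0.46, Peg10 at -0.55 ± 0.35 and Mest at -0.34 ± 0.37. The maternally expressed genes were at -0.30 ± 0.37 for Cdkn1c, -0.27 ± 0.31 for Grb10, -0.04 ± 0.26 for Meg3 and 0.46 ± 0.27 for Igf2r. Medians were -0.82 over the paternally expressed genes, -0.15 over the maternally expressed genes and -0.04 over all genes. The arrays of Plagl1 and Peg3 did not overlap between the fractions, 2 of 10 genes lower, against 13.4% of all genes. Within the mixed hybridisation run the medians were -0.80 and -0.02. Without Stella-negative ESC array 2 they were -0.48 and -0.058, and without Stella-positive ESC array 1 they were -0.60 and 0.19.

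The difference between the sorts was tested directly as an interaction. Of the 10 representatives, 0 passed with limma and 7 had an unadjusted p under 0.05, with 0.207% of all genes called in the lower direction and 0.6% in the higher. Igf2r was nearest at -1.66 ± 0.38, followed by Dlk1 at -2.52 ± 0.63 and Meg3 at -1.37 ± 0.35 (limma adjusted p = 0.053, 0.077 and 0.082). Of the 27 tested probe sets 4 were called, 1 of Igf2r and 3 of Meg3, against 0.213% of all tested probe sets in that direction. With arrays centred on their medians 0 were called. Without positive day 7 arrays 3 and 4 there were 6, against 162 of all 30023 tested probe sets called lower. The medians of this difference were -1.70 over paternally and -1.24 over maternally expressed genes, and without positive day 7 arrays 3 and 4 their order turned, at -0.90 and -1.27, with 0 representatives called. The drop across the sort at day 7 was thus not shown to exceed that in ESC for any representative. Neither was it shown to differ between paternally and maternally expressed genes, since those medians carry no test.

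From ESC to day 7 the negative fraction gained 9 of the 10 genes and the positive fraction 4. Both fractions used separate ESC arrays as their base. The 9 rises, against 18.9% of all genes called higher, ran from 1.59 ± 0.37 for Mest to 4.57 ± 0.46 for Dlk1, and Peg10 was at -0.48 ± 0.35. The 4 genes higher in the positive fraction, against 9.02% of all genes, were Igf2, Plagl1, Meg3 and Dlk1. There Cdkn1c was at 0.77 ± 0.35, Peg3 at 0.76 ± 0.47, Grb10 at 0.66 ± 0.29, Igf2r at 0.50 ± 0.26, Mest at 0.15 ± 0.35 and Peg10 at -0.46 ± 0.34, none past the test. Without Stella-positive ESC array 2 Grb10 passed at 1.26 (limma adjusted p = 0.034). Over all genes 2648 rose and 2247 fell in the negative fraction and 1264 and 952 in the positive fraction, and with median centring 791 and 4114, and 286 and 1980. The negative day 7 arrays enter both the rise from ESC and the day 7 sort, so a high level there gives both a rise from ESC and a drop across the sort. Meg3 probe sets disagreed in the positive fraction: 1439380_x_at rose by 2.06 ± 0.24, 1426758_s_at was at 0.47 ± 0.22 without passing, and 1436713_s_at fell by 1.02 ± 0.33 (limma adjusted p = 0.046). Without positive day 7 arrays 3 and 4 the positive fraction gained 5 genes, Peg3 being the fifth, against 9.07% of all genes called higher. In that setting 0 probe sets of the 10 genes were called lower. The 3'/5' ratios moved with culture on these arrays, so a fit with the Gapdh ratio as a covariate cannot tell the 2 apart. In that fit 5 of 6 paternally and 1 of 4 maternally expressed genes were called in the negative fraction, against 966 of all 14007 genes higher. The rises of Cdkn1c, Igf2r and Grb10 lost their calls. In the positive fraction 5 and 1 were called, with Mest and Peg3 gained, against 427 of all 14007 genes higher. The part of the ratios in the disagreement of the Meg3 probe sets was not tested.

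Unsorted ESC differed from the sorted fractions in Meg3 alone of the 10. Meg3 was higher by 1.52 ± 0.26 than in Stella-negative and by 1.56 ± 0.28 than in Stella-positive ESC (limma adjusted p = 0.0071 and 0.0090), where 1.19% and 2.23% of all genes were called higher. In each comparison 4 Meg3 probe sets passed, against 1.09% and 1.91% of all tested probe sets called higher. Plagl1 was 1.55 ± 0.46 and Grb10 1.13 ± 0.34 above Stella-positive ESC without passing (limma adjusted p = 0.072 and 0.075). Without unsorted array 1 the Meg3 difference was 1.41 against the negative and 1.45 against the positive fraction and lost both calls (limma adjusted p = 0.11 and 0.12). Without Stella-positive ESC array 1 it was 1.48 against the positive fraction and did not pass (limma adjusted p = 0.078). Without Stella-positive ESC array 2 Grb10 passed there as well, at 1.73 (limma adjusted p = 0.023). Unsorted ESC were hybridised in a run of their own, so sorting and run cannot be told apart. The summed signal of 14 fibroblast and feeder cell markers was 8526 on unsorted array 1 and 1953 on array 2, against 1487 to 2236 in negative and 473 to 1804 in positive ESC, and its part in the Meg3 result was not tested.

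Within the Stella-positive day 7 group the arrays fell into pairs, 1 with 2 and 3 with 4, which also differed in technical measures. The actin 3'/5' ratio was 2.04 and 2.17 on arrays 1 and 2 and 4.89 and 5.16 on arrays 3 and 4, and the Gapdh ratio 1.32 and 1.23 against 1.65 and 2.09. The factors that scaled the deposited signal were 1.27 and 1.47 against 3.62 and 12.4, so arrays 3 and 4 were the dimmer ones. The part of these measures in the following values was not tested. From arrays 1 and 2 to arrays 3 and 4 the mean log2 level changed by -1.99 in Igf2, -1.56 in Peg3, -1.26 in Dlk1, -1.23 in Mest and -0.91 in Plagl1, and by 0.40 in Peg10. The maternally expressed genes changed by -0.58 in Meg3, -0.18 in Igf2r, 0.42 in Grb10 and 0.45 in Cdkn1c. Arrays 3 and 4 both lay below arrays 1 and 2 in 5 of 6 paternally expressed and 1 of 4 maternally expressed genes, against 23.5% of all genes. These are values within 1 group, described without a test. Without arrays 3 and 4 the day 7 sort still called 9 of the 10 genes, with medians of -1.78 over paternally and -1.32 over maternally expressed genes. The gap between those medians was therefore smaller without these arrays. Within the mixed hybridisation run the medians were -2.19 and -1.43.

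The mean log2 level of the 6 paternally minus that of the 4 maternally expressed genes gives the same on 1 scale, on which only differences between arrays have meaning. It was 0.13 and 0.05 in Stella-negative day 7 cells and -0.39, -0.16, -1.20 and -1.59 in Stella-positive day 7 cells. It was -0.39, 0.08 and -0.59 in Stella-negative ESC, -1.06 and -1.05 in Stella-positive ESC, and -1.04 and -0.95 in unsorted ESC. Both Stella-positive fractions thus lay below their Stella-negative partners on every array. On this scale unsorted ESC lay near the positive fraction, but their paternal mean (8.11 and 7.71) lay within the 7.65 to 8.48 of Stella-negative ESC and above the 7.08 and 7.41 of Stella-positive ESC. Their maternal mean (9.15 and 8.65), which includes Meg3, was above the 8.14 to 8.46 of all sorted ESC arrays.

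**Figure D4:**
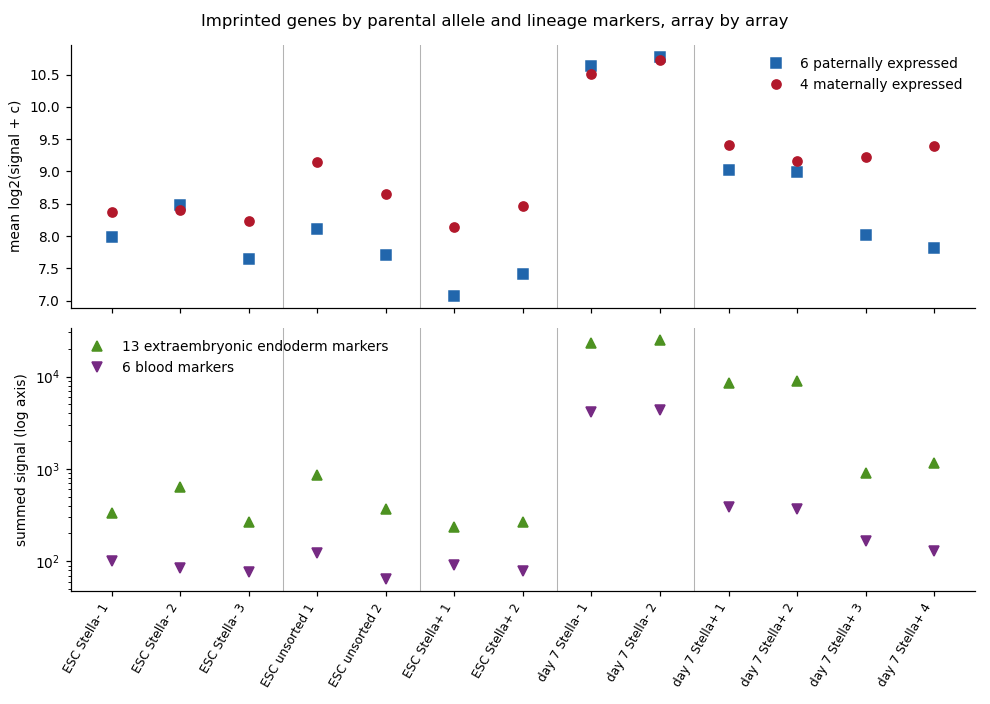
Upper panel: mean log2(signal + c) of the 6 paternally (squares) and 4 maternally expressed genes (circles) on each of the 13 arrays. Lower panel: summed scaled signal (log axis) of extraembryonic endoderm and blood markers on the same arrays, where Stella-positive day 7 arrays 3 and 4 (911 and 1149.8 for endoderm) lie below arrays 1 and 2 (8613 and 8875).

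Markers of other cell types moved with these genes at day 7. The summed signal of 13 extraembryonic endoderm markers was 23177 and 25079 on the negative arrays, 8613, 8875, 911 and 1149.8 on positive arrays 1 to 4, and 234 to 853 in ESC. Afp, a plasma protein gene of yolk sac and fetal liver, read 6475 and 6664 in negative cells, 2858, 2898, 49.1 and 23.8 in positive cells and at most 3.3 in ESC. In the day 7 sort 11 of 13 endoderm, 6 of 9 mesoderm and endothelium, 3 of 5 blood and 7 of 13 fibroblast markers were called lower, and 0 of 4 trophoblast markers. Of 11 pluripotency markers 7 were higher. Over all genes 9.07% were called lower and 10.2% higher. Without positive arrays 3 and 4 the lower counts were 10, 6, 4, 6 and 2 in the same order of lists. In that setting 10 pluripotency markers were higher, and 10.4% of all genes were called lower and 11.1% higher. With median centring the lower counts were 6, 5, 3, 5 and 0, against 3.45% of all genes. That scaling called 6 pluripotency markers higher, against 12.1%. The embryonic globin Hbb-y read 2406 and 2470.0 in negative cells and 152, 159, 17.2 and 0.9 in positive cells. The part of these other cells in the values of the imprinted genes was not tested, and in bulk RNA fewer cells of a type and less RNA per cell cannot be told apart.

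A wider list of 42 imprinted genes beyond the 10 moved less evenly. Of these, 35 had a probe set with 1 symbol and 29 were tested. In the day 7 sort 8 were lower, 3 higher and 18 not called, with a median of -0.31, against 9.07% lower and 10.2% higher over all genes, so the share called higher is near the background. With median centring 4 were lower and 4 higher, against 3.45% and 12.1%. Without positive arrays 3 and 4 there were 9 and 3, against 10.4% and 11.1%. The largest drops were in Asb4 (-2.97 ± 0.51), of the same imprinted cluster as Peg10, and in the noncoding RNA genes Rian (-2.13 ± 0.58) and Mirg (-1.80 ± 0.29), which lie in the same domain as Dlk1 and Meg3. All 3 are maternally expressed. The higher genes were Copg2 (1.16 ± 0.22), a neighbour of Mest, Sfmbt2 (1.10 ± 0.34) and Commd1, whose difference was the smallest of the 3. Medians of the list were -0.52 over its 15 paternally and -0.05 over its 14 maternally expressed genes tested. The labels are textbook knowledge, and some of these genes are imprinted only in placenta or brain, so the split need not hold in these cells. In ESC 0 of the 29 passed with limma and 2 had an unadjusted p under 0.05. From ESC to day 7, 9 rose and 7 fell in the negative fraction and 5 rose and 2 fell in the positive fraction, against 18.9% and 16.0% of all genes in the negative and 9.02% and 6.8% in the positive fraction. Without positive day 7 arrays 3 and 4 the rises numbered 12 and 6 and the falls 7 and 2. Over all genes the shares were then 26.8% higher and 19.6% lower in the negative and 9.07% and 6.2% in the positive fraction. The share that fell in the positive fraction is near the background. With median centring 4 rose and 8 fell in the negative fraction, against 5.65% and 29.4% of all genes. In the positive fraction 3 rose and 3 fell with that scaling, against 2.04% and 14.1%. Ndn, a growth suppressor expressed from the paternal copy, rose in both, by 3.25 ± 0.35 and 1.82 ± 0.33.

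A list of 12 genes that act on the marks held factors that set or keep them and the oxidases Tet1 and Tet2, which act in their removal. In the day 7 sort 4 were higher, 0 lower and 8 not called, with a median of 0.60, against 10.2% higher over all genes. With median centring 4 were higher, against 12.1%, and without positive arrays 3 and 4 there were 6, against 11.1%. They were Dnmt3l, the cofactor of de novo DNA methylation in germ cells (2.12 ± 0.28), Trim28, the corepressor recruited to imprinted regions (1.14 ± 0.21), Uhrf1, which guides maintenance methylation (0.82 ± 0.24), and the histone methyltransferase gene Setdb1 (0.67 ± 0.19). From ESC to day 7 in the positive fraction 1 of the 12 was higher and 2 lower, with and without arrays 3 and 4. Over all genes the shares were 9.02% and 6.8% with these arrays and 9.07% and 6.2% without. Lower were Zfp57, which binds methylated imprinted regions (-0.95 ± 0.27), and Dnmt1, the maintenance methyltransferase (-0.75 ± 0.16). Tet2 was higher there by 1.77 ± 0.31, and 1 of 12 higher is near the background. In the negative fraction 1 of the 12 was higher and 6 lower, against 18.9% and 16.0% of all genes. The median was -0.59 there and -0.05 in the positive fraction. With median centring 1 was higher and 8 lower in the negative fraction, against 5.65% and 29.4%. That scaling gave 1 and 3 in the positive fraction, against 2.04% and 14.1%. In ESC 0 of the 12 passed with limma and 1 had an unadjusted p under 0.05.

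Genes most like 3 of the members over the 13 arrays were found by the root mean square difference of mean-centred log2 values. For Dlk1 these were the transcription factor gene Maf (0.48), the secreted chaperone gene Clu (0.49) and the kinase gene Nrk (0.60), against a median of 1.78 over all genes. For Igf2 they were the IGF binding protein gene Igfbp5 (0.48), the cardiac actin gene Actc1 (0.52) and the zinc transporter gene Slc39a8 (0.56), against 1.86. For Meg3 they were Cd14 (0.28), the lysosomal membrane gene Lamp2 (0.39) and Foxp1 (0.40), against 1.27. Dlk1 ranked Igf2 11th of all genes, and Igf2 ranked Dlk1 8th. Meg3 ranked its neighbour Dlk1 2779th (1.03) and Plagl1 84th (0.61), while Dlk1 ranked Meg3 132nd at the same distance. The measure counts the size of changes as well as their pattern, so a low rank need not mean an unlike pattern. All these values share the arrays and the large step between negative day 7 cells and the rest.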

How the data were processed

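Linear MAS5 signal intensity for 45101 probe sets on 13 arrays was taken from the deposited series table, and MAS5 is named in the submitters' processing notes. The sources used here do not give its version, its target or the annotation build. The deposited intensity columns differed 27.1-fold in their trimmed mean (2% from each end), so each was scaled to the common value of 105.2. A constant c of 10.5, 1/10 of that value, was added before log2, which shrinks changes of dim genes. The 64 control probe sets were left out. Of the remaining 45037, 30023 exceeded the median signal of the array on 2 arrays or more and were tested. The annotation gave 1 symbol to 34945 probe sets, several to 932 and none to 9160. No columns were identical (0 pairs).

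Groups and array numbers are those of the sample titles. One limma fit (version 3.58.1 under R 4.3.3) of the 5 group means, with a trended prior variance, took in all 13 arrays. Benjamini-Hochberg adjustment of the two-sided p-values ran over every probe set tested in a comparison, with calls at 0.05. A gene is represented by its probe set with the highest mean signal. All members are named. Of other imprinted genes at most 3 called per direction are named, of the marker lists and the list of genes acting on the marks at most 3 where a result turns on them, and for likeness the 3 nearest genes. The 4 called genes of that last list in the day 7 sort and the 3 of the positive fraction are named in full, chosen after their values were seen. The other lists were pluripotency, extraembryonic endoderm, mesoderm and endothelium, blood, fibroblast and feeder, and trophoblast markers. The members and lists were chosen with earlier results of these data known, so their calls are no independent evidence. The number of arrays limits the precision. CpG were counted in the RefSeq windows of the GRCm38.p6 build.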

Additional observations from a re-analysis of the deposited data

Results flagged for a closer look

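In 4 probe sets the sort difference at day 7 differed from that in ESC by a test of the difference itself (limma interaction, 4 of 27 tested, against 0.213% of all probe sets in that direction). With arrays centred on their medians 0 passed. For Igf2r probe set 1424111_at the difference of differences was -1.92 ± 0.37 (limma adjusted p = 0.029). It read 636 and 733 in negative day 7 cells, 187, 187, 218 and 181 in positive day 7 cells, and 126 to 163 on the sorted ESC arrays. For Meg3 it was -2.18 ± 0.32 in 1426758_s_at, -2.05 ± 0.38 in 1452183_a_at and -2.10 ± 0.41 in 1452905_at (limma adjusted p = 0.0083, 0.027 and 0.029). The brightest probe sets of the same genes had -1.66 and -1.37 and did not pass. The ESC part of these differences was near 0, from -0.21 to 0.15, so the day 7 sort makes up most of each. The Gapdh 3'/5' ratio ran from 0.803 to 0.869 over all ESC arrays, and at day 7 from 1.23 to 2.09 with Stella and was 3.03 and 3.18 without it, and its part in these 4 was not tested.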

How the results depend on the processing

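Of 1488 recomputed values for single genes, 1396 kept their direction and side of the threshold, 38 gained a call, 32 lost it and 22 changed sign. The day 7 sort called 6 to 9 genes. It called 8 with hybridisation run as a block and 9 without positive day 7 arrays 3 and 4, and its range without single arrays was 6 to 9. The Gapdh covariate, which also left 6, moved the paternal median from -2.48 to -4.49 and the maternal one to -1.04. Over all genes it called 1468 lower, against 1270. The ratio did not overlap between the day 7 fractions, so that fit cannot tell it apart from the sort. The rise of the negative fraction kept 9 calls without any single array and 6 with that covariate. With median centring it also had 9, but as 8 higher and Peg10 lower at -1.08, and that scaling moved the median of all genes in that comparison from 0.18 to -0.41 and the calls over all genes from 2648 higher and 2247 lower to 791 and 4114. At day 7 it moved the calls of the sort from 1434 higher and 1270 lower to 1701 and 483. The ESC sort had 0 calls in every setting.

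The interaction, with 0 calls, had 3 with quantile normalization, 2 with a constant of 1/3 of the trimmed mean, 2 with array weights, 1 with the filter on all arrays of a group, 1 with only the groups compared, 1 with the mean over probe sets and 5 with the Gapdh covariate, and 0 to 1 without single arrays. Over all genes, interaction calls in the lower direction were 29 in the main fit. They were 83 with quantile normalization, 62 with that constant, 142 with array weights and 34 with that filter. They were 28 with only the groups compared, 10 with the mean over probe sets and 915 with the Gapdh covariate. Igf2r was called in 10 and Dlk1 in 4 of 29 settings. Among single arrays, leaving out positive ESC array 1, either unsorted array or positive day 7 array 4 called Igf2r, and leaving out positive day 7 array 1 called Dlk1. The positive fraction from ESC to day 7, with 4 calls, had 3 to 4 without single arrays. Unsorted against negative ESC, with 1, had 0 with median centring, with a constant prior variance and with the mean over probe sets, and 0 to 1 without single arrays. Unsorted against positive ESC, with 1, had 0 under the same 3 settings, 3 with array weights, 3 with the Gapdh covariate, 3 without positive day 7 arrays 3 and 4, and 0 to 3 without single arrays. Over all genes, calls higher in unsorted than in positive ESC numbered 313 in the main fit. They were 611 with array weights, 587 with the Gapdh covariate and 711 without positive day 7 arrays 3 and 4. The cause of these changes was not tested.

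Titles and array description files number the arrays differently. Deviations of same-numbered arrays showed little correlation (r from -0.01 to 0.07 by titles and from -0.02 to -0.01 by array files). In a group of 2 arrays the deviations mirror each other, so these few values cannot decide whether the numbers pair samples. With the replicate block by array files the positive fraction kept 2 of 4 calls, with 58 of all genes called higher, against 1264. Unsorted against positive ESC had 0 calls with that block and 2 with the block by titles. Over all genes 28 and 559 were called higher there. The day 7 sort had 9 with the block by titles and 8 by array files.

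Signs changed only among values that were not called. In the ESC sort Meg3 became 0.039 with median centring and 0.067 with array weights and ran from -0.28 to 0.19 without single arrays. Cdkn1c became 0.36 with the array file block and 0.087 with the run block and ran from -0.69 to 0.087. Grb10 ran from -0.87 to 0.34 and Igf2 from -2.08 to 0.12, each positive only without positive ESC array 1. The Peg10 interaction became -0.13 with the run block and -0.17 without positive day 7 arrays 3 and 4 and ran from -0.24 to 0.37. From ESC to day 7 in the positive fraction Mest became -0.29 with median centring and ran from -0.055 to 0.41, and Grb10 became -0.11 with the mean over probe sets. Where a setting leaves a group with 1 array, that array is assumed to vary like the others. The run block, given for the sorts and their interaction alone, kept only the arrays of the mixed runs and fitted no term for run. It leaves 1 negative day 7 array and 1 positive ESC array. The block by array file numbers was added after seeing the data.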
